A study of Mus musculus with 4 samples.

Results

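The expression of mouse genes in embryonic stem cells that carried sea urchin PRDM14 was compared with that in cells that carried an empty vector. The comparison used 2 of the 4 arrays of the series, the array labelled sea urchin PRDM14 and the array labelled empty vector, and was made over the 23521 of 41345 probe sets that the platform annotation pairs with 1 gene symbol. Cells of all 4 groups lacked Prdm14, were mouse embryonic stem cells, and were grown in 2i medium (inhibitors of MEK and GSK3) with leukemia inhibitory factor on STO cells, a mouse fibroblast line that serves as a feeder layer. The other 2 arrays came from Prdm14 knockout cells that carried either mouse PRDM14 or the sea urchin pair of PRDM14 and CBFA2T, and the array of that pair is called the CBFA2T array below. Each group had 1 array, all on the strip numbered 2. The design text also mentions another strip, which was not analysed here. No replicate error exists for any value, no test was made, and differences are given by size on the log2 scale. The sources used here do not give the vector, its promoter or the number of clones behind each group.

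PRDM14 is a protein with a PR domain and zinc fingers that binds DNA in naive pluripotent stem cells and in primordial germ cells. In the mouse it acts largely as a repressor through CBFA2T2, a member of the CBFA2T (ETO) co-repressor family, and it is known for holding down fibroblast growth factor signalling and DNA methyltransferase genes. Sea urchins have an orthologue of each of these proteins, and the comparison asks what the sea urchin PRDM14 does to gene expression in mouse cells that have none of their own.

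A gene with several probe sets was represented by the brightest, which gave 22180 genes, and 12042 of them had a log2 level of at least 4.84 on 1 or more of the 4 arrays and were kept. The median level over all probe sets lay between 4.54 and 4.55 on every array. The differences between the sea urchin PRDM14 array and the empty vector array had an SD of 0.16 across the genes kept and a median of 0.01. Of the differences, 1% lay below -0.36 and 1% above 0.44. All 10 embryonic stem cell markers were kept, and on the sea urchin PRDM14 array they lay between 4.98 for Dppa5a and 8.75 for Nanog. Of the 25 fibroblast markers listed for the feeder cells, 23 were on the array and 16 were kept. The 16 lay between 4.91 and 6.94 with the empty vector, with a median of 5.90, and between 5.04 and 6.84 with sea urchin PRDM14, where the median was 5.84. Their differences ran from -0.21 for Thy1 to 0.21 for Twist1, and their median of -0.04 became 0.02 when all probe sets of a gene were averaged. The feeder lineage genes Dcn, Lum, Lox, Fap, Postn, S100a4 and Twist2 stayed below the filter on all arrays. In bulk RNA such as this, fewer cells of a type and less RNA per cell cannot be told apart.

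The introduced sea urchin protein could not be followed on these arrays. The mouse Prdm14 probe set read 5.71 with the empty vector, 5.77 with sea urchin PRDM14, 5.53 on the CBFA2T array, and 5.57 with mouse PRDM14. These values did not separate the groups. The sources used here do not say which exons this probe set covers, so it could not check the labels, and group names mean the arrays so labelled. The mouse CBFA2T genes Cbfa2t2, Cbfa2t3 and Runx1t1 differed between the arrays compared by 0.10, 0.01 and -0.13.

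Few genes differed by much. With sea urchin PRDM14, 4 of the 12042 genes (0.0332%) exceeded their empty vector level by 2-fold or more, and 0 (0.00%) lay below it by as much. The first pair were Rex2 and Zfp981, zinc finger genes that lie near each other on chromosome 4, and the second pair were Snord13 and Snord1b, small nucleolar RNAs. Snord13 guides the acetylation of ribosomal RNA, and Snord1b belongs to the box C/D RNAs, which guide its methylation. The genes just outside this threshold on the higher side were Snord42b at 0.87, Zfp992 at 0.82 and Snord72 at 0.81. Those on the lower side were Plagl1 and Plin2, both at -0.86, and the olfactory receptor gene Olfr492 at -0.84.

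**Figure D1:**
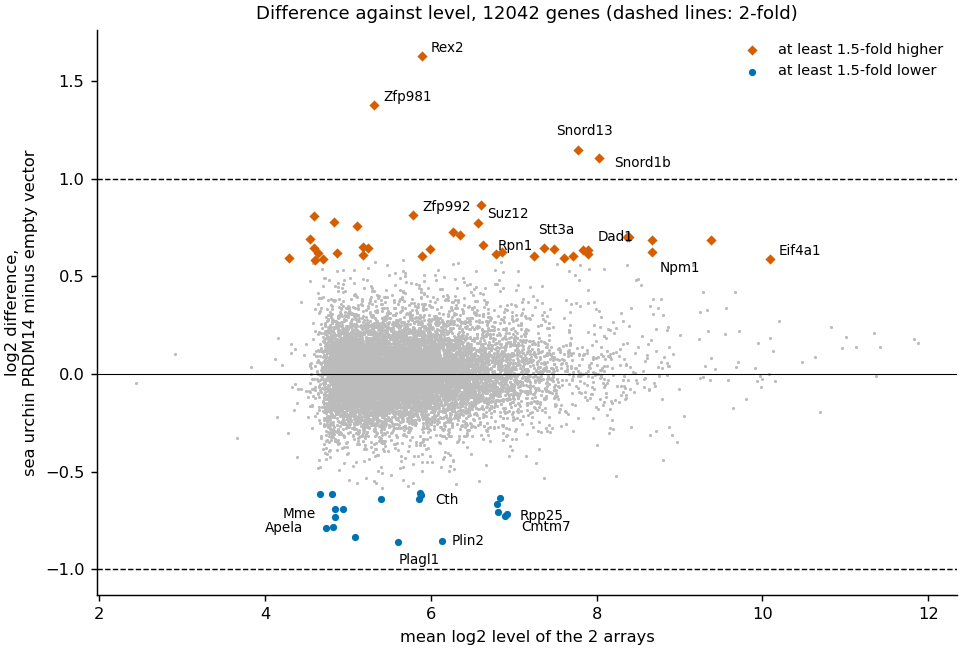
Each point is 1 of the 12042 genes kept, with the mean log2 level of both arrays on the horizontal axis and the log2 difference, sea urchin PRDM14 minus empty vector, on the vertical axis. Rex2 at 1.63 and Zfp981 at 1.38 stand highest, no gene reaches 2-fold lower, and 1% of genes lie above 0.44 and 1% below -0.36.

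The upstream bases of Rex2 and Zfp981 are shown because these genes head the comparison and their starts resemble one another. The sequences are the 250 bases before the annotated start, from RefSeq GRCm38.p6, at chr4:147021600-147021849 and chr4:146514670-146514919, both on the plus strand. Capitals mark bases that align between the 2 and are identical.
Rex2: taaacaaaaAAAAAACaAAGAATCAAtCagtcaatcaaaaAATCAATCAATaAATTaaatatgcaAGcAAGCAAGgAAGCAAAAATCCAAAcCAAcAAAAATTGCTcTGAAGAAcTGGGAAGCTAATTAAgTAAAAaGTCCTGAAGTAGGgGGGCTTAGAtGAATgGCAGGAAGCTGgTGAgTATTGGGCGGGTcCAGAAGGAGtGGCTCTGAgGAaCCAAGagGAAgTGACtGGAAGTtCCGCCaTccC
Zfp981: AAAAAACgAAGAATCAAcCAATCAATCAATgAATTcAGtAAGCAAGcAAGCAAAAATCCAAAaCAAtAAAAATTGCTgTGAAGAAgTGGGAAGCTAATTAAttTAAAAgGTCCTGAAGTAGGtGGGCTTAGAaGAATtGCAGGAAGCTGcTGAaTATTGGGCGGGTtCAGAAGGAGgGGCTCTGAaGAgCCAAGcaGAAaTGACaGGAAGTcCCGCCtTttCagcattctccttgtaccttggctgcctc
Of 221 aligned bases, 192 were identical (86.9%). The genes come from a local cluster of near copies, so probes may be shared between its members and the value of each single member is uncertain.

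Rex2 read 5.07 with the empty vector, 6.70 with sea urchin PRDM14, 7.00 on the CBFA2T array, and 6.33 with mouse PRDM14. The empty vector array was the lowest, and the sea urchin PRDM14 array stood above it by 1.63, which is 3.09-fold. Zfp981 read 4.62, 6.00, 6.09 and 4.89 in the same order, so both sea urchin arrays were high and the mouse PRDM14 array was close to the empty vector array. Its difference of 1.38, or 2.60-fold, starts from an empty vector value below the filter. A probe set that the annotation assigns to Zfp600, Zfp979, Zfp980, Zfp981 and Rex2 together read 8.27, 9.21, 9.45 and 9.02, a difference of 0.94. That probe set is not among those with 1 gene, and it was low on the empty vector array alone.

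The neighbours of Rex2 were looked at because of its difference, so Rex2 and Zfp981 are left out of the counts that follow. Among the 50 RefSeq genes on either side of Rex2, 17 zinc finger symbols were listed, and 11 had a probe set of their own. Of the 9 other than Rex2 and Zfp981, 8 were higher with sea urchin PRDM14 than with the empty vector. Of the 9, 6 passed the filter, 5 of them were above 0, and their median was 0.30. Over all genes kept, 51.6% of differences were above 0 and 48.4% below. Because probes may be shared within the cluster, its members may not be separate observations. Against the same empty vector array the median of the 6 was 0.31 with mouse PRDM14 and 0.40 on the CBFA2T array. The empty vector array was the lowest of the 4 for 5 of the 6, against 25.3% of all genes. The sea urchin PRDM14 array was the highest for 1, against 25.0% of all genes. Zfp980 and Zfp979 read 4.71 and 4.63 with the empty vector, below the filter, and were kept through their other arrays. That way of passing favours a difference above 0 and a low empty vector array. Zfp992, the nearest neighbour of Zfp981 in this group, read 5.38, 6.19, 6.56 and 6.46 on the empty vector, sea urchin PRDM14, CBFA2T and mouse PRDM14 arrays. Zfp980 differed by 0.44, Zfp979 by 0.32, Zfp534 by 0.28 and Zfp984 by 0.26. Zfp979 has 3 probe sets, and its difference was 0.04 when they were averaged. The member below 0 was Zfp933 at -0.13. The remaining 3, Zfp985 at 0.73, Zfp600 at 0.60 and Zfp982 at 0.03, lay under the filter on every array. Zfp640, a zinc finger gene without a RefSeq entry here, could not be placed by gene order. It read 7.04, 7.68, 8.05 and 7.21, and its 3 probe sets differed by 0.65, 0.50 and 0.68.

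**Figure D2:**
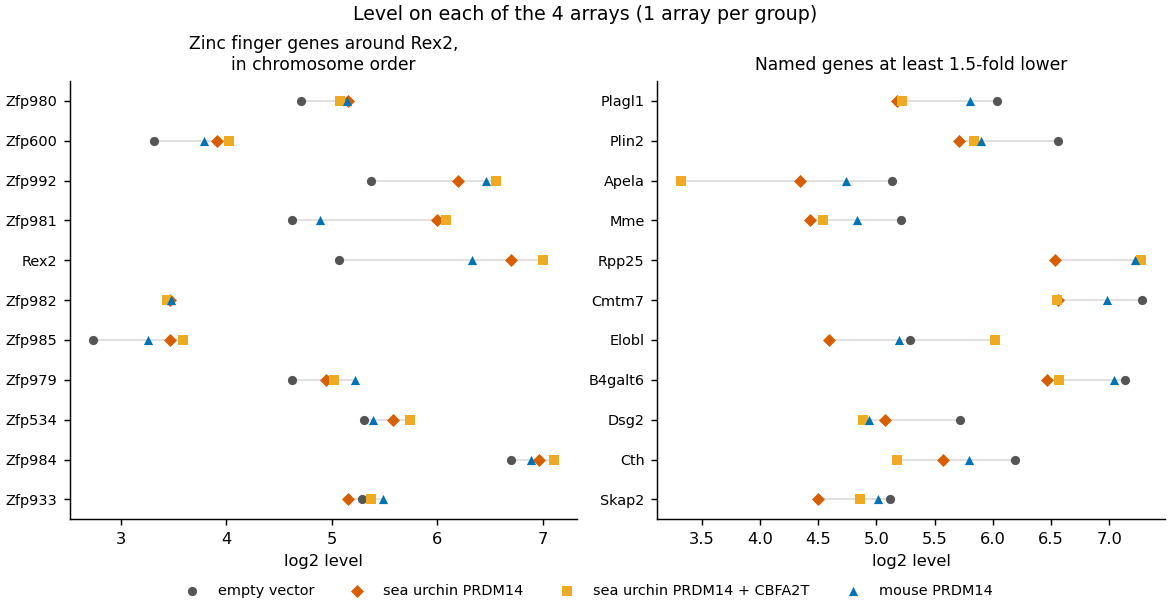
The left panel gives the log2 level of the zinc finger genes around Rex2, in chromosome order, and the right panel that of the named genes at least 1.5-fold lower, with 1 symbol per array and 1 array per group. On the left the empty vector circle is leftmost for Rex2, Zfp981 and Zfp992, and on the right it is rightmost for all genes but Rpp25 and Elobl.

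At a threshold of 1.5-fold (0.585 on the log2 scale), 41 genes (0.340%) were higher and 19 genes (0.158%) were lower with sea urchin PRDM14. Of the 41, 24 were protein-coding and 15 were small RNAs, among them 9 small nucleolar RNAs and 2 microRNAs. Of all 12042 genes kept, 10942 were protein-coding, 60 were small nucleolar RNAs and 142 were microRNAs. The empty vector array was below the filter for 11 of the 41, and for 1 of these, Gca, so was the sea urchin PRDM14 array. Of the 19 lower genes, 14 were protein-coding, and the sea urchin PRDM14 array was below the filter for 8. Of 4 equal bins of genes by mean level, the brightest held 23 of the 41 and the dimmest 10, and the SD of the differences was 0.17 and 0.16 in these bins.

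The arrays that did not enter the comparison gave a view of these genes that shares no array with it. The difference between the CBFA2T array and the mouse PRDM14 array was above 0 for 28 of the 41 higher genes, against 52.9% of all genes kept, with a median of 0.16 against 0.01. It was below 0 for 12 of the 19 lower genes, against 47.0% of all genes, with a median of -0.15. Both arrays with sea urchin PRDM14 stood above both others for 25 of the 41, against 20.6% of all genes, and below both for 11 of the 19, against 16.6%. Choosing genes by their difference from the empty vector favours such an order, and it also favours the array compared at the extreme. The empty vector array was the lowest of the 4 for 36 of the 41 (25.3% of all genes) and the highest for 12 of the 19 (24.4%). The sea urchin PRDM14 array was the highest for 20 of the 41 (25.0%) and the lowest for 15 of the 19 (22.4%).

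The named protein-coding genes at least 1.5-fold higher included regulators of chromatin and RNA. Suz12, a core subunit of Polycomb repressive complex 2, read 6.19 with the empty vector, 6.96 with sea urchin PRDM14, 7.19 on the CBFA2T array, and 5.87 with mouse PRDM14. Both sea urchin arrays were high, and the difference was 0.77. The other 11 complex members and partners kept were at most 0.29 away from the empty vector, with Phf19 at -0.29, Eed at -0.08 and Ezh2, the methyltransferase subunit, at -0.04. The list of 12 had a median of -0.05, with 3 above 0, against 51.6% of all genes.

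Wapl, which releases cohesin from chromosomes, read 5.99, 6.71, 6.25 and 6.32 in the same order of arrays, so the sea urchin PRDM14 array was the highest. Fxr2, an RNA-binding relative of the fragile X protein, read 5.67, 6.31, 6.35 and 5.86, with both sea urchin arrays high. The following were chosen after their values were seen. Npm1, which encodes a nucleolar histone chaperone, read 8.36, 8.98, 9.06 and 8.46 and had both sea urchin arrays high. Prmt5, which encodes an arginine methyltransferase, read 7.52, 8.15, 8.37 and 8.12, and Supt16, which encodes a subunit of the histone chaperone FACT, read 6.54, 7.17, 7.12 and 6.97. For these genes and for the translation initiation helicase Eif4a1, at 9.79, 10.38, 10.33 and 10.52, the empty vector array was the lowest of the 4. A second Eif4a1 probe set read 6.84, 7.10, 7.33 and 6.78, a difference of 0.25, and was lowest with mouse PRDM14. The second, dim probe set of Npm1 differed by 0.31.

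Genes of the endoplasmic reticulum, where secreted and membrane proteins enter, fold and are glycosylated, were mostly higher on the sea urchin PRDM14 array, by small amounts. When unfolded proteins collect there, the unfolded protein response raises chaperones such as Hspa5 (BiP) through the factors XBP1 and ATF6, which act at the endoplasmic reticulum stress response element. The unfolded protein list had 13 members kept, and 12 of them were above 0, against 51.6% of all genes. Their median was 0.29, against 0.01 over all genes. None of the 13 was past 1.5-fold. The sea urchin PRDM14 array was the highest of the 4 for 11 of the 13, against 25.0% of all genes. The list's median against the empty vector was -0.01 with mouse PRDM14 and 0.04 on the CBFA2T array, and all of these medians share the empty vector array. Beside this, the 16 feeder markers had a median of -0.04, with the collagen genes Col1a1 at -0.16 and Col1a2 at 0.17, and the part of feeder cells in the result was not tested.

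The promoters are shown because several of these genes carry the element before their start. It was searched as CCAAT, then 9 bases of any kind, then CCACG, on both strands, in RefSeq windows from 250 bases before to 50 after each annotated start of GRCm38.p6. Of 32851 windows, 39 held it (0.119%), and of the 9344 genes kept that have a window, 14 did (0.150%). It was in 7 of the 11 windows of the unfolded protein list (63.6%), a list made of known members of the response. Capitals mark the whole element in the 250 bases upstream of Hspa5, at chr2:34771840-34772089, and of Dnajc3, at chr14:118937682-118937931, both on the plus strand.
Hspa5: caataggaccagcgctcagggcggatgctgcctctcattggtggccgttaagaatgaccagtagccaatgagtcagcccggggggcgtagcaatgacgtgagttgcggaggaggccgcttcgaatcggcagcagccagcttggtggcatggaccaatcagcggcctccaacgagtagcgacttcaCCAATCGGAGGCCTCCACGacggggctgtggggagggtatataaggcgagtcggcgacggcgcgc
Dnajc3: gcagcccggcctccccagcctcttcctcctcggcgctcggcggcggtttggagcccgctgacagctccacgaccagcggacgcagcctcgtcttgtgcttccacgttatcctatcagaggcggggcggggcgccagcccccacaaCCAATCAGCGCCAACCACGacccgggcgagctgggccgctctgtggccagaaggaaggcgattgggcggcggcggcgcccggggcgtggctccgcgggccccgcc
For the other members, and for Canx of the folding enzymes described below, the element alone is given, read along the strand that carries it, with capitals for its fixed letters.
Pdia6: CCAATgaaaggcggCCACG
Hsp90b1, first: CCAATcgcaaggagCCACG
Hsp90b1, second: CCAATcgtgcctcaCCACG
Calr: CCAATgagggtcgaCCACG
Creld2: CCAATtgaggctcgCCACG
Syvn1: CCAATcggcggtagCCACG
Canx: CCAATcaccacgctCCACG
Creld2 shares its element with its neighbour Alg12, which starts in the opposite direction. A match is a description of letters and not of binding.

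Dnajc3, which encodes the co-chaperone and kinase inhibitor P58IPK, read 5.04 with the empty vector, 5.62 with sea urchin PRDM14, 5.27 on the CBFA2T array, and 4.93 with mouse PRDM14, a difference of 0.58. Pdia6, a disulfide isomerase gene, read 7.44, 7.82, 7.49 and 7.56. Hspa5, the gene of the main chaperone BiP, read 6.15, 6.49, 6.20 and 6.21. In all of these the sea urchin PRDM14 array was the highest, and for Pdia6 and Hspa5 the other 3 lay close together. Hsp90b1, which encodes the chaperone GRP94, read 7.82, 8.16, 7.75 and 7.78, and was likewise high on that array alone. Xbp1, the gene of the response factor itself, read 5.75, 6.08, 6.05 and 5.61, so both sea urchin arrays were high. Hyou1 differed by 0.33, Manf by 0.29, Creld2 by 0.28 and Calr by 0.17. The degradation genes hardly differed, with Syvn1 at 0.06, Sel1l at 0.03 and Herpud1 at 0.00, and Sdf2l1 lay at -0.11.

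Of the 14 genes kept with the element, 7 are on the unfolded protein list and 7 are not. Over all genes kept, 51.6% were above 0, and the sea urchin PRDM14 array was the highest for 25.0%. The 7 on the list were all above 0, with a median of 0.33, and the sea urchin PRDM14 array was the highest for each. Of the 7 off the list, 5 were above 0, the median was 0.02, and the sea urchin PRDM14 array was the highest for 2. The highest of the 7 was Canx at 0.56. Those below 0 were Esp18 at -0.16 and Xlr3a at -0.04, and neither is on an endoplasmic reticulum list. Windows were found for 22 of the genes at least 1.5-fold higher and for 10 of those at least 1.5-fold lower, and the element lay in 0 of the 22 and 0 of the 10. The letters GGTCTCTAA, a motif bound by mouse PRDM14, were in 84 of 32851 windows (0.256%) and in 26 of the 9344 windows of genes kept (0.278%). On either strand they too lay in 0 of the 22 and 0 of the 10 windows, which says only that these letters are not there.

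**Figure D3:**
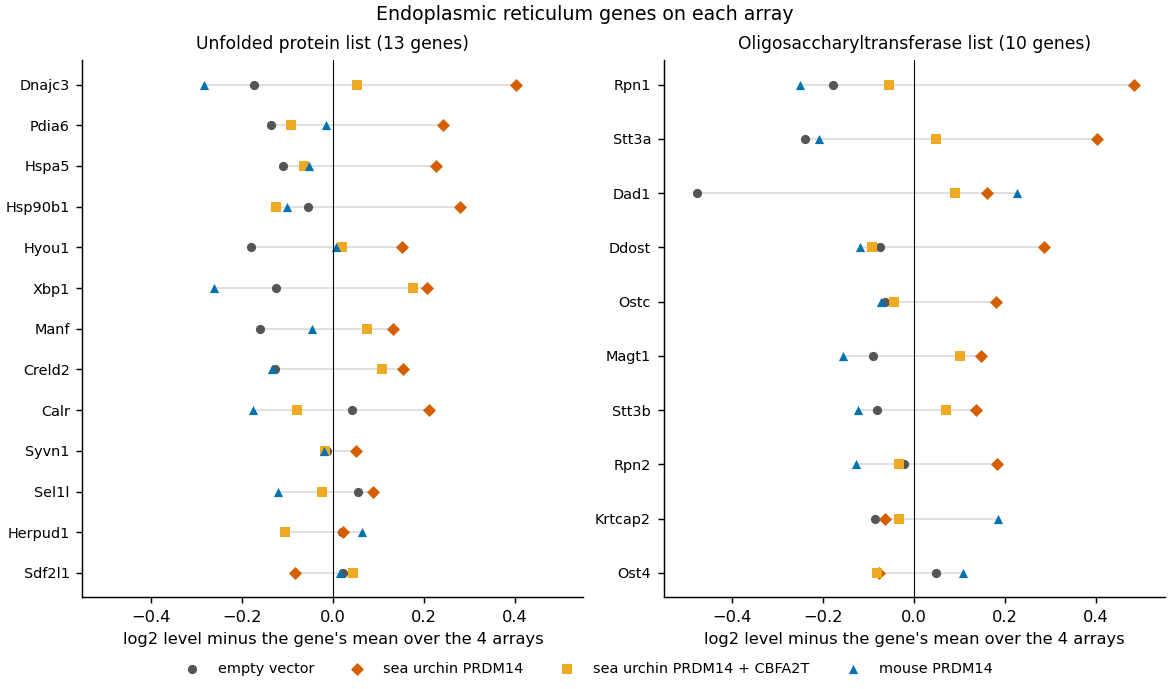
Each symbol is 1 array, placed at the log2 level of the gene minus that gene's mean over the 4 arrays, for the 13 genes of the unfolded protein list and the 10 of the oligosaccharyltransferase list. The orange diamond of sea urchin PRDM14 is rightmost for 11 of the 13 and 7 of the 10 genes.

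Lists of other endoplasmic reticulum machinery were drawn up after these values were seen and are a description only. The oligosaccharyltransferase complex transfers the preassembled glycan onto new proteins. Of its 10 members kept, 9 were above 0, against 51.6% of all genes, with a median of 0.24. Of them, 3 were at least 1.5-fold higher, against 0.340% of all genes. Rpn1 read 6.30, 6.96, 6.42 and 6.23 on the empty vector, sea urchin PRDM14, CBFA2T and mouse PRDM14 arrays. Stt3a, a catalytic subunit gene, read 7.17, 7.81, 7.45 and 7.20, and for both of these the sea urchin PRDM14 array was well above the other 3. Dad1 read 7.58, 8.22, 8.14 and 8.28, and here the empty vector array was the low one. Ddost differed by 0.36, Ostc by 0.24, Magt1 by 0.24, Stt3b by 0.22 and Rpn2 by 0.20, while Krtcap2 was at 0.02 and Ost4 at -0.13. The stress response element was in 0 of the 9 windows of this list.

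Of 20 genes for entry into the endoplasmic reticulum, 13 were above 0, against 51.6% of all genes, with a median of 0.17. The sea urchin PRDM14 array was the highest for 12 of the 20, against 25.0% of all genes. Sec61a1, the pore of the translocon, read 7.82, 8.36, 7.93 and 7.85, and stood out on the sea urchin PRDM14 array. Sec61g, another translocon subunit, differed by 0.52 and Ssr3, of the translocon-associated complex, by 0.39. The signal peptidase genes Spcs1 and Sec11a lay at -0.25 and -0.21, and Srp14, of the signal recognition particle, at -0.21. The element was in 0 of 14 windows here. Of 14 disulfide and prolyl folding enzymes and their partners, 13 were above 0, against 51.6% of all genes. Their median was 0.16, and 3 of 14 windows (21.4%) held the element. Fkbp11, a prolyl isomerase gene, read 4.92, 5.56, 4.92 and 4.91, so the other 3 arrays were nearly equal. P4hb, which encodes protein disulfide isomerase, read 7.23, 7.80, 7.58 and 7.22, and the lectin chaperone gene Canx read 8.09, 8.65, 8.58 and 7.98, with the sea urchin PRDM14 array the highest each time.

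Counted once each, the genes of the unfolded protein list and of the 3 lists just described made 55 genes kept. Above 0 were 45 of them, against 51.6% of all genes. The median of the 55 was 0.20. The sea urchin PRDM14 array was the highest for 39 of the 55, against 25.0% of all genes. Of the 55, 4 were higher by 1.5-fold or more and 0 lower by as much, against 0.340% and 0.158% of all genes. All 4 are on the 3 lists drawn up after the values were seen, so the counts over the 55 describe chosen genes only. Without the genes of chromosome 11, the medians were 0.29 for the unfolded protein list and 0.24 for the oligosaccharyltransferase list. They were then 0.12 for the entry list and 0.13 for the folding enzymes. The steps before and after were nearer to 0. The dolichol-linked glycan list had a median of 0.10 over 16 genes (0.06 without chromosome 11). Its member Mpdu1, needed for the use of mannose donors, lay on that chromosome and was at 0.62. The COPII coat list, for export, had a median of 0.10 over 10 genes with Sar1b at 0.56, and the COPI and retrieval list one of 0.08 over 12 genes with Kdelr2 at 0.36. Cnih1, a cargo receptor for export that is on none of these lists, read 4.73, 5.49, 5.13 and 4.97. It was below the filter on the empty vector array and above it on the other 3.

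Genes of the amino acid stress response, which shares the factor ATF4 with the unfolded protein response, were not higher as a group. Of 20 members kept, 8 were above 0, against 51.6% of all genes, with a median of -0.08. Cth, which encodes the cystathionine lyase of cysteine synthesis, read 6.19, 5.57, 5.18 and 5.79, was at least 1.5-fold lower, and was highest on the empty vector array. Trib3 lay at -0.38, Asns at -0.36, Psat1 at -0.25 and Chac1 at -0.21, whereas Atf4 itself lay at -0.07.

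The other named genes at least 1.5-fold lower came from unrelated families. Plagl1, an imprinted zinc finger gene, read 6.04 with the empty vector, 5.18 with sea urchin PRDM14, 5.22 on the CBFA2T array, and 5.81 with mouse PRDM14. Both sea urchin arrays were low. Its second, dim probe set differed by -0.04, and the mean of both by -0.45. Of the 16 imprinted genes kept, 5 were above 0, against 51.6% of all genes, with a median of -0.07. Rian lay at -0.42 and Peg3 at -0.30, and Dlk1 was higher by 0.37.

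Plin2, which coats lipid droplets, read 6.56, 5.71, 5.84 and 5.90, so the empty vector array was the high one. Apela, a peptide ligand gene of the apelin receptor, read 5.14, 4.34, 3.32 and 4.74, and lay under the filter on all but the empty vector array. Mme, which encodes neprilysin, read 5.21, 4.43, 4.54 and 4.83, again with only the empty vector array above the filter. Cmtm7 read 7.28, 6.56, 6.55 and 6.98, and B4galt6, which encodes a lactosylceramide synthase, read 7.13, 6.47, 6.57 and 7.04. Both were low on the pair of sea urchin arrays. Rpp25, of ribonucleases P and MRP, read 7.26, 6.53, 7.27 and 7.22, and was low on the sea urchin PRDM14 array alone. Dsg2, a desmosomal cadherin gene, read 5.72, 5.08, 4.89 and 4.94, with a difference of -0.64 that was -0.46 when its probe sets were averaged. Skap2, a kinase-associated adaptor gene, read 5.11, 4.50, 4.86 and 5.01, and was lowest with sea urchin PRDM14. Elobl read 5.29, 4.60, 6.02 and 5.20, so the array with CBFA2T went the other way.

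**Figure D4:**
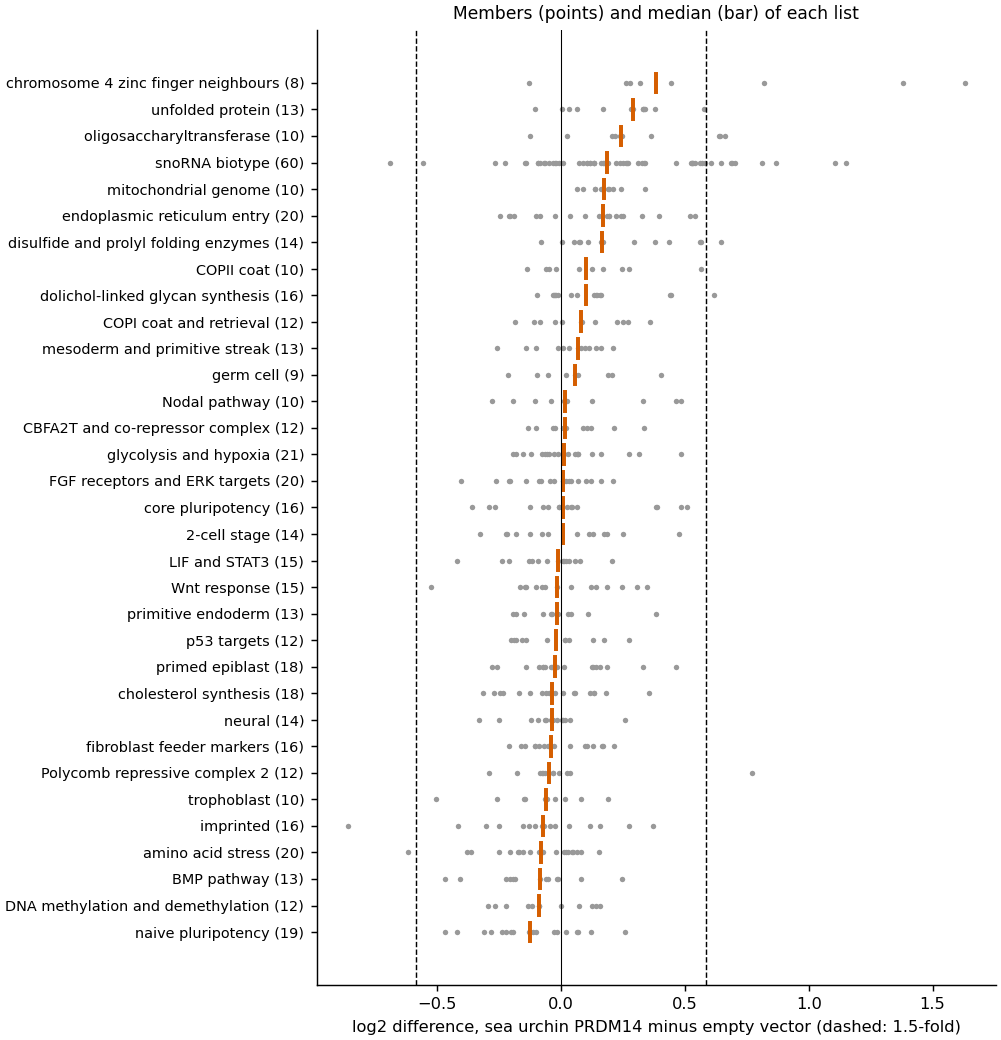
Grey points are the log2 differences, sea urchin PRDM14 minus empty vector, of the genes kept in each list, and the orange bar is the list's median, with the number of genes in parentheses. The chromosome 4 zinc finger genes (median 0.38, with Rex2 and Zfp981 included) and the unfolded protein list (0.29) lie at the top and the naive pluripotency list (-0.13) at the bottom.

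Among lists tied to the known roles of PRDM14, the naive pluripotency list lay lowest. Of its 19 members kept, 5 were above 0, against 51.6% of all genes, none was past 1.5-fold, and the median was -0.13. The sea urchin PRDM14 array was the lowest of the 4 for 10, against 22.4% of all genes. The list's median against the same empty vector array was 0.12 with mouse PRDM14 and 0.05 on the CBFA2T array. Laptm5, the largest difference of the list, read 6.47, 6.00, 5.56 and 6.08. Tfcp2l1, a naive state factor also on the list for leukemia inhibitory factor, read 7.35, 6.93, 7.21 and 7.60, and Nanog read 9.07, 8.75, 9.28 and 8.99. For Tfcp2l1 and Nanog the sea urchin PRDM14 array was the lowest. Klf5 lay at -0.28 and Klf4 at -0.24, while Pecam1 was at 0.26 and Dppa3 at 0.02. The core pluripotency list, with 16 members kept, divided evenly, with 8 above 0 and a median of 0.01 that was -0.01 after loess. Epcam was at 0.51, Tdgf1 at 0.48, Dppa4 and Utf1 at 0.38, and Fbxo15 at -0.36, whereas Pou5f1 and Sox2 were at -0.01 and -0.07.

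Developmental lists stayed near 0. The primed epiblast list had a median of -0.03 over 18 genes (0.05 with the stricter filter), with Lefty2 at 0.46. Lefty2, an antagonist of Nodal, read 6.54, 7.00, 6.46 and 6.08, and Tdgf1, the Nodal co-receptor gene, read 8.25, 8.74, 7.58 and 8.42. Both were highest with sea urchin PRDM14, as was Lefty1 (0.33), while Nodal itself was at -0.28. The Nodal list as a whole had a median of 0.02 over 10 genes. The medians were -0.02 for primitive endoderm over 13 genes, with Lamb1 at 0.38, -0.06 for trophoblast over 10 genes, with Ets2 at -0.51, 0.07 for mesoderm and primitive streak over 13 genes, with Eomes at -0.26, and -0.04 for neural genes over 14, with Sox1 at -0.33. The germ cell list had a median of 0.05 over 9 genes, with Tdrd12 at 0.40. Over 14 genes of the 2-cell stage the median was 0.01, which turned negative under 4 of the alternatives, with Zfp809 at 0.48 and Zscan4e at -0.33. Zscan4e and 4 more of the 14, namely Tmem92, Usp17le, Zscan4b and Zscan4d, lay under the filter on both arrays compared. Without these 5 genes the median was 0.11.

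Signalling and chromatin lists also had medians near 0, and the BMP list lay furthest from 0 with the stricter filter. Fibroblast growth factor receptors and targets of the ERK kinase had a median of 0.01 over 20 genes (-0.04 with the stricter filter), with Dusp4, an ERK phosphatase gene, at -0.40. The receptor genes kept on this list, Fgfr1 and Fgfr4, lay at 0.10 and 0.07. The DNA methylation list had a median of -0.09 over 12 genes (-0.002 with the stricter filter), with Uhrf1, the maintenance cofactor, at -0.30. Of the methyltransferase family, Dnmt3b lay at 0.14, Dnmt3a at 0.12, Dnmt1 at -0.002 and Dnmt3l at -0.27. Dnmt3b read 6.42 with the empty vector, 6.56 with sea urchin PRDM14, 6.34 on the CBFA2T array, and 5.96 with mouse PRDM14. The CBFA2T and co-repressor list had a median of 0.02 over 12 genes, with Hdac1 at 0.34. The list for leukemia inhibitory factor and STAT3 had a median of -0.02 over 15 genes (0.01 with no filter). The Wnt list had a median of -0.02 over 15 genes, with the antagonist Sfrp1, which read 8.49, 7.97, 6.89 and 8.28, at -0.52 and the feedback gene Axin2 at 0.35. The BMP list had a median of -0.09 over 13 genes (-0.22 with the stricter filter), with Dusp9 at -0.47. Of the 13, 2 were above 0, against 51.6% of all genes. Bmp4, at -0.41, read 6.10 with the empty vector and 5.69 with sea urchin PRDM14. It read 5.74 on the CBFA2T array and 6.89 with mouse PRDM14. Metabolic and stress lists gave medians of -0.04 for cholesterol synthesis over 18 genes, 0.01 for glycolysis and hypoxia over 21 (-0.01 after loess) and -0.02 for p53 targets over 12. Their largest differences were in Fdft1 (0.36), the glucose transporter gene Slc2a1 (0.48, or 0.25 with its probe sets averaged) and Aen (0.28).

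Small nucleolar RNAs were spread more widely than genes as a whole. The 60 small nucleolar RNAs kept had an SD of 0.35 and a median of 0.18, with 44 above 0, against 51.6% of all genes. Of the 60, 9 were higher by 1.5-fold or more, against 0.340% of all genes, and 1, Snord83b at -0.69, was lower by as much, against 0.158%. Snord13 read 7.20, 8.35, 7.84 and 8.13, and Snord1b read 7.48, 8.59, 8.64 and 8.48, so for both the empty vector array was the low one. The median of the class against the same empty vector array was 0.27 with mouse PRDM14 and 0.11 on the CBFA2T array. The 142 microRNA genes had a median of -0.05 and the 589 long noncoding RNA genes one of -0.02. All 10 genes of the mitochondrial genome kept were above 0, with a median of 0.17, beside 0.19 with mouse PRDM14 and 0.28 on the CBFA2T array against the same array.

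The higher genes were not spread evenly over the chromosomes. Of the 41 genes at least 1.5-fold higher, 11 lay on chromosome 11, which holds 1067 of the genes kept. Besides the small RNAs Snord1b, Snord42b, Snord65 and Snord49a, these were Suz12, Npm1, Fxr2, Eif4a1, Mpdu1, Hint1 and Ccdc47. The chromosome's median was 0.06, and 63.9% of its genes were above 0, against 51.6% of all genes. In 4 equal bins of the chromosome by gene order the median was 0.06, 0.06, 0.03 and 0.07. Between the CBFA2T array and the mouse PRDM14 array, which share no array with the comparison, the bins had medians of 0.08, 0.07, 0.08 and 0.06. Over all genes kept that median was 0.01. Against the empty vector array, the CBFA2T array had a median of 0.065 on chromosome 11 and 0.074 on chromosome 16. On chromosome 16 the median with sea urchin PRDM14 was -0.004. A further 7 of the 41 lay on chromosome 14, namely Cnih1, Wapl, Dad1, Prmt5, Supt16, Nefl and the ribonuclease P RNA Rpph1. That chromosome's median over 403 genes was 0.02. The medians of the other nuclear chromosomes with at least 100 genes kept lay between -0.01 and 0.02. The part of chromosome 11 in the values of single genes was not tested.

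**Figure D5:**
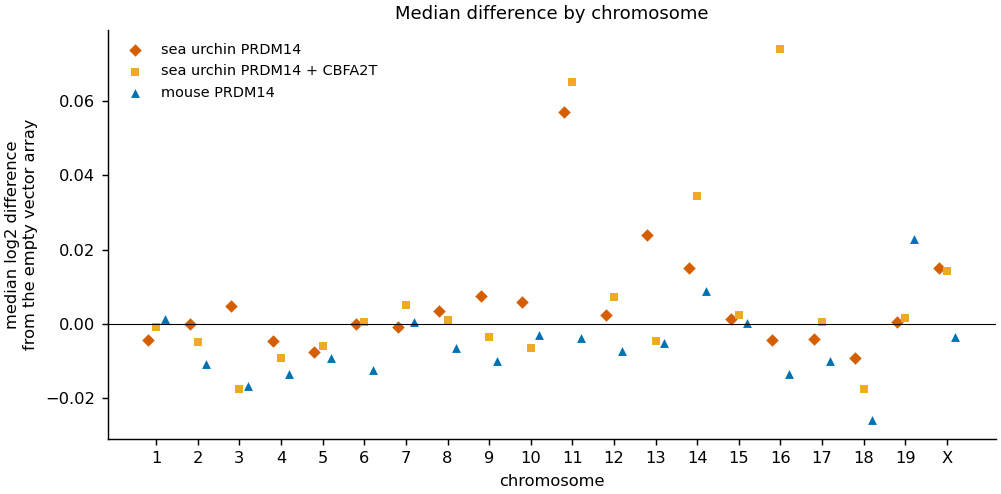
The median log2 difference from the empty vector array is given for each chromosome with at least 100 genes kept, with 1 symbol for each of the other arrays, which all share the empty vector array. For sea urchin PRDM14 the median is 0.06 on chromosome 11 and 0.02 or less on every other chromosome shown. For the CBFA2T array it is 0.065 on chromosome 11 and 0.074 on chromosome 16.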

How the data were processed

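Total RNA of 4 cell samples was measured on GeneAtlas arrays. The authors deposited log2 values made with RMA, per the submitters' processing notes, which corrects background, equalises the distributions of the arrays and summarises probes, so a shift shared by most genes cannot be seen. The sources used here do not give the RMA version or which arrays were normalized together. Probe sets with 1 gene symbol in the platform annotation were used. The brightest probe set over the 4 arrays stood for a gene, and a gene was kept when its highest array reached 4.84, the median of named probe-set values. Differences are array minus array on the log2 scale, and genes were called at 2-fold and at 1.5-fold. With 1 array per group there is no error and no test, and arrays limit the precision by their number.

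The genes named were Prdm14 and the CBFA2T genes, all genes past 2-fold, up to 12 in each direction past 1.5-fold without predicted genes, small RNAs and receptor families, up to 4 per gene list, and zinc finger neighbours of Rex2. Any further name was picked with its values in view. The members and the 25 gene lists were chosen with earlier results of these data known, and 6 lists of endoplasmic reticulum and secretory machinery were added after the values of this comparison were seen. Names, gene order and promoter windows came from RefSeq GRCm38.p6, which had an entry for 11964 of the 12042 genes kept.

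The alternatives were other filters (none, a stricter one at 5.65, one on the mean), cyclic loess, the mean of probe sets, leaving out small RNAs and predicted genes and, added after the values were seen, leaving out chromosome 11 and a filter on the 2 arrays compared. The calculation of the counts and medians was tested on simulated data. Loess was run in limma 3.58.1 (R 4.3.3), and the rest in Python 3.11.15 with pandas 2.3.3, numpy 2.4.6 and matplotlib 3.10.9.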

Additional observations from a re-analysis of the deposited data

Results flagged for a closer look

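Some genes that passed 1.5-fold with sea urchin PRDM14 lay on the opposite side of the empty vector on another array, by more than 1.5-fold. These opposite differences rest on 1 array each, share the empty vector array, and were not tested. AF357355, a small nucleolar RNA of chromosome 12, was higher by 0.60 with sea urchin PRDM14 but lay at -1.96 with mouse PRDM14 and at -1.23 with sea urchin PRDM14 and CBFA2T. Elobl lay at -0.69 with sea urchin PRDM14 and at 0.74 with sea urchin PRDM14 and CBFA2T. The predicted gene Gm2022 lay at -0.61 and 1.52, and the transcribed pseudogene 2210409E12Rik at -0.71 and 0.97, in the same order.

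Probe sets assigned to several genes were outside the comparison, and 893 of them passed the same filter. Of these, 1 was at least 2-fold higher with sea urchin PRDM14, a probe set of Snord1c and Snord1b at 1.05. Another 1 was at least 2-fold lower, a probe set of the microRNA genes Mir24-1 and Mir3074-1 at -1.07, which read 4.94 with the empty vector and 3.87 with sea urchin PRDM14.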

How the results depend on the processing

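All 4 genes called at 2-fold remained past it with no filter, with the stricter filter, with the filter on the mean, after cyclic loess and with the mean of probe sets. Without chromosome 11, 3 remained. All 4 remained when the filter was set on the 2 arrays compared, and the median of the 2-cell list was then 0.11, since 5 dim genes drop out. The count of higher genes was 41 at 1.5-fold and 2 without small RNAs and predicted genes, and the count of lower genes was 19 at 1.5-fold and 0 in every other setting. The median of the BMP list was -0.22 with the stricter filter. With the mean of probe sets, 4 of 58 named genes moved by more than the SD over genes, to -0.46 for Dsg2, -0.45 for Plagl1, 0.25 for Slc2a1 and 0.04 for Zfp979. With the stricter filter the dimmer members of the BMP list dropped out. Dusp9, Bmp4, Smad1, Bambi and Smad7 stayed, at differences from -0.47 to -0.19. The other moves follow from the threshold, the genes left out and the dimmer probe sets. After loess, none of the 58 moved by as much. Medians within 0.1 of 0 changed sign for 7 of the lists under 1 or more settings, and those of the naive pluripotency, unfolded protein and other endoplasmic reticulum lists did not. No paired analysis was possible because each group has 1 array, and for the same reason no array could be left out. From the dimmest to the brightest of 4 equal bins of genes, the SD of the differences was 0.16, 0.15, 0.15 and 0.17.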

Other observations

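Histone H3.3 genes were not reached by probe sets of 1 gene, but 2 probe sets that the annotation assigns to H3f3a, H3f3b and related copies together stood higher with sea urchin PRDM14. The first read 7.64 with the empty vector, 8.31 with sea urchin PRDM14, 8.38 with sea urchin PRDM14 plus CBFA2T, and 7.52 with mouse PRDM14, a difference of 0.67. The second read 8.15, 8.78, 8.89 and 8.04 in the same order, a difference of 0.63. On both, the pair of sea urchin arrays stood above the other pair. A probe set of Glrx3 and Gm12669 read 6.00, 5.39, 5.83 and 5.94, and was low on the sea urchin PRDM14 array alone.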
